A study of Mus musculus with 3 samples.

Results

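In mouse fibroblasts, 1075 of 239157 autosomal windows of 10 kb (0.449%) had very low DamID values in both of the profiles examined here. These windows, called low-ratio bins below, were those whose fragments averaged -2 or lower on the log2 scale in the Dam-Lamin A profile and in the Dam-Lap2b profile. A fragment was counted in the bin that held its middle, and a bin needed at least 10 fragments. The cells were wild-type C57BL/6 mouse embryonic fibroblasts, a culture of connective tissue cells from embryos, and all of them had been transduced with a murine retrovirus. The cassette expressed Dam-Lamin A, Dam-Lap2b or, as the control, Dam alone, with 1 sample in each of the 3 groups. The retroviral cassette adds the fusion to a cell that still has its own copy of the protein. Without replicates there was no test between groups, and every value below describes these libraries only.

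DamID records contact by a chemical mark. The protein of interest is fused to Dam, a bacterial enzyme that methylates the adenine of GATC, and DNA cut at methylated sites is amplified and read by sequencing. Lamin A builds the nuclear lamina, the meshwork lining the inner nuclear membrane, and Lap2b is a membrane protein anchored beside it. Long stretches of mostly silent chromatin that touch this layer are known as lamina-associated domains, and the gene-rich chromatin between them lies in the nuclear interior. Dam alone diffuses through the nucleus and methylates open chromatin readily, which is why a fusion is read as a ratio to it. A low ratio can therefore be reached with few fusion reads, with many Dam-only reads, or with both. The assay pools many cells, so contact in fewer cells and weaker contact in each cell cannot be told apart.

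The deposited values can be written as log2((fusion reads + 1)/(reference reads + 1)) shifted by a constant, from which whole reads were recovered for each fragment. With denominators up to 20, 71.3% of 100000 drawn fragments fitted whole numbers in both profiles with 1 common reference, against at most 0.004% with shifted constants. The reference was taken to be the Dam-only library, although no label states so, and the recovered numbers are lower bounds. Over all fragments, the reference reached 155006411 reads, the Dam-Lap2b library 151585350 and the Dam-Lamin A library 139935263. Because both profiles share this reference, they are not independent measurements of the same bin. The domain lists fitted the profiles crosswise by a small margin over these bins. The Dam-Lamin A profile differed between the inside and outside of domains by 2.16 with the Dam-Lap2b list and by 2.09 with its own, and the Dam-Lap2b profile by 2.10 with the Dam-Lamin A list and by 2.02 with its own. The low-ratio bins were required to be low in both profiles, so an exchange of labels would leave the set as it is. Values given below for 1 profile or 1 list by name would pass to the other if those labels were exchanged. Whether any labels were exchanged was not tested.

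Low values in both profiles at once were rare. Of the bins tested, 3.71% (8878) reached -2 in the Dam-Lamin A profile and 3.15% (7530) in the Dam-Lap2b profile, and 0.449% (1075) in both. The low-ratio bins averaged -2.28 ± 0.25 (SD over bins) in the Dam-Lamin A profile, with a lowest value of -3.75. In the Dam-Lap2b profile they averaged -2.38 ± 0.36, with a lowest value of -4.28. These values chose the bins and are a description. The Dam-Lap2b profile thus had the longer tail, with 77 of the bins at -3 or lower against 15 in the Dam-Lamin A profile, and 0 bins reached -3 in both. The Dam-Lamin A value exceeded the Dam-Lap2b value by 0.09 ± 0.45 on average, and 585 bins were lower in the Dam-Lap2b profile. Among the low-ratio bins the values of both profiles had a Pearson's r of -0.06 over 1075 bins that share their libraries and were all cut at the same threshold.

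**Figure D1:**
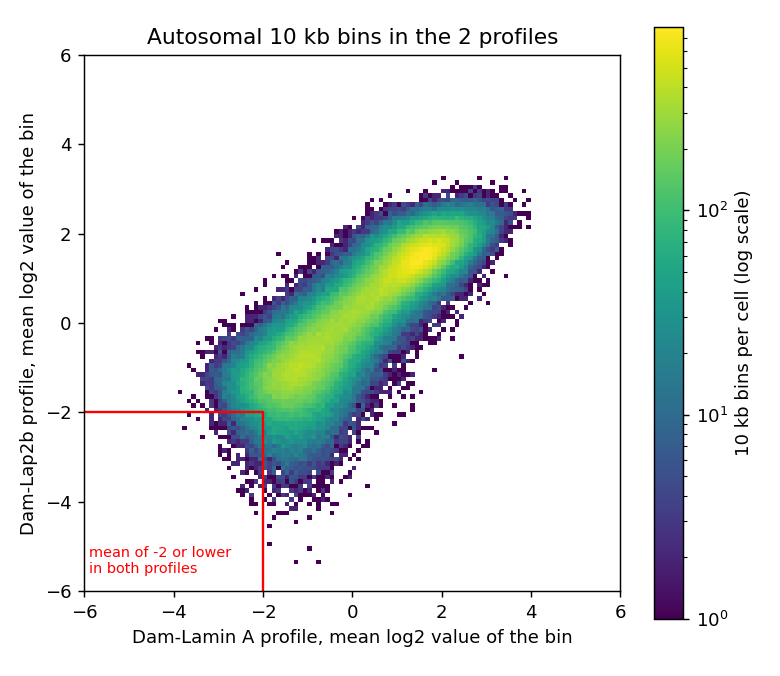
Density of the 239157 autosomal bins by their mean log2 value in the Dam-Lamin A profile (x axis) and in the Dam-Lap2b profile (y axis), with colour for the number of bins per cell on a log scale. The red lines enclose the 1075 low-ratio bins, at the lower left corner where the cloud spreads into an arm low in one profile and an arm low in the other.

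The 5 lowest bins were all lower in the Dam-Lap2b profile than in the Dam-Lamin A profile. The lowest by the mean of both profiles was chromosome 9 44290001 to 44300000, at -2.18 in the Dam-Lamin A profile and -4.28 in the Dam-Lap2b profile. It held 1047 Dam-Lamin A, 169 Dam-Lap2b and 5415 reference reads over 23 fragments. Next came chromosome 6 30120001 to 30130000 at -2.46 and -3.89, and chromosome 7 148400001 to 148410000 at -2.53 and -3.75, each pair in the order Dam-Lamin A and Dam-Lap2b. After them came chromosome 15 75900001 to 75910000, at -2.20 and -4.07, and chromosome 19 5050001 to 5060000, at -2.18 and -4.04. In these 5 bins the Dam-Lap2b profile was the lower by at least 1 unit, while the Dam-Lamin A profile stayed between -2.53 and -2.18. The bin lowest in the Dam-Lamin A profile, chromosome 10 24310001 to 24320000, had the opposite order, at -3.75 and -2.34.

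Bins with at least 30 fragments rest on more sequence, and 132 low-ratio bins had as many. The 5 lowest of them were divided between the profiles. Chromosome 18 36030001 to 36040000 (-2.004 and -3.61), chromosome 2 164260001 to 164270000 (-2.53 and -2.92) and chromosome 9 107450001 to 107460000 (-2.40 and -3.02) were lower in the Dam-Lap2b profile. Chromosome 11 70000001 to 70010000 (-3.18 and -2.17) and chromosome 12 16870001 to 16880000 (-3.09 and -2.23) were lower in the Dam-Lamin A profile.

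The threshold did not fall in a gap of the values. Just inside it, in the order Dam-Lamin A and Dam-Lap2b, lay the bins on chromosome 3 from 90310001 (-2.0001 and -2.33), chromosome 9 from 102680001 (-2.18 and -2.0002) and chromosome 4 from 116290001 (-2.18 and -2.0003). Just outside lay those on chromosome 17 from 56700001 (-1.99999 and -2.15), chromosome 13 from 64530001 (-1.9993 and -2.51) and chromosome 5 from 124460001 (-1.9992 and -2.20). In 478 of the low-ratio bins (44.5%), at least 1 profile lay above -2.1. Membership also changed with how fragments were averaged. With reads summed over the bin in place of the mean of log2 values, 1410 bins passed, of which 512 were among the 1075. With the median over fragments 799 passed, of which 555 were among the 1075.

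The reads behind the ratios are parts of the values that chose the bins, so they are a description with no test, and a high reference follows in part from the rule. The median low-ratio bin held 2833 reference reads, against 395 in the median of all bins, 7.17 times as many. It held 579 Dam-Lamin A reads against 466, and 534 Dam-Lap2b reads against 560. By rank among all bins, the median low-ratio bin stood at the 98.2nd percentile of reference reads, the 64.4th of Dam-Lamin A reads and the 46.2nd of Dam-Lap2b reads. All 1075 lay above the median bin in reference reads, and 851 of them (79.2%, 95% Clopper-Pearson interval 76.6 to 81.6%) lay in the top 5%. Fusion reads spread on both sides of the median bin, with 66.1% of the low-ratio bins above it in Dam-Lamin A reads and 46.9% in Dam-Lap2b reads. Since fusion reads in these bins were near those of the median bin, the bins are named here by their ratio and not as depleted of fusion reads.

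**Figure D2:**
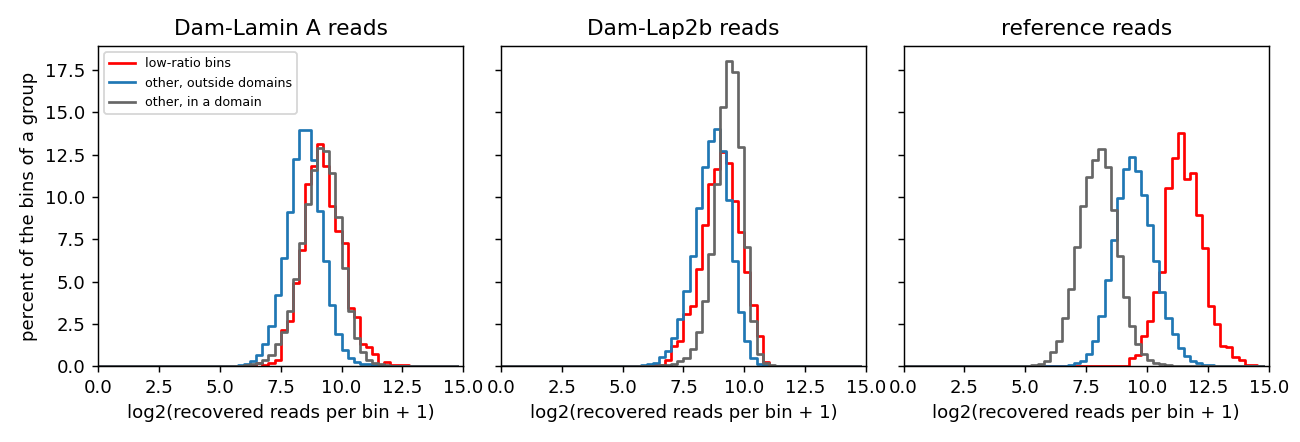
Distribution of recovered reads per bin, as log2(reads + 1), in each library for the low-ratio bins (red), for other bins outside the listed domains (blue) and for other bins in a domain (grey), as percent of the bins of each group. Bins low in 1 profile alone are left out. The groups overlap widely in both fusion libraries, and the low-ratio bins lie to the right in the reference, with medians of 2833, 700 and 253 reads.

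Bins outside the domains gave a closer comparison, also without a test. Other bins outside both domain lists had a median of 700 reference reads, so the low-ratio bins exceeded them 4.05 times. They also had more fusion reads than these bins, with 579 against 358 for Dam-Lamin A and 534 against 421 for Dam-Lap2b. Against other bins in a listed domain, the reference ratio was 11.2, while Dam-Lamin A reads were almost equal (579 against 571) and Dam-Lap2b reads were lower (534 against 665). Not all bins with many reference reads were low-ratio bins. Of the 2393 bins in the top 1% of reference reads, 387 (16.2%) were low in both profiles, while 35.6% reached -2 in the Dam-Lamin A profile and 55.8% in the Dam-Lap2b profile. In the top 10%, the low-ratio bins and the other 22921 bins had similar fusion reads, 609 and 570 for Dam-Lamin A and 561 and 626 for Dam-Lap2b, and differed in the reference, 2964 against 1827. This difference follows in part from the rule.

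With the added read in the deposited ratio, not every bin could pass. With 0 fusion reads, a fragment needed at least 4 reference reads to reach -2. If every fusion read were 0, 85.2% of all bins would average -2 or lower in both profiles. This share was 99.4% outside the listed domains and 73.8% inside them, so more of the bins in a domain held too few reference reads to pass.

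Bins low in 1 profile alone differed from the low-ratio bins in the fusion that was low. The 7803 bins low in the Dam-Lamin A profile alone had a median of 289 Dam-Lamin A and 649 Dam-Lap2b reads, with 1473 reference reads. The 6455 bins low in the Dam-Lap2b profile alone had 693 Dam-Lamin A and 263 Dam-Lap2b reads, with 1803 reference reads. In both sets the reference was thus above the median bin but below the 2833 of the low-ratio bins, and 1 fusion was scarce. In their other profile they averaged -1.25 ± 0.42 and -1.25 ± 0.47, so they were not high there. The layout of fragments did not enter the rule beyond the minimum of 10 fragments, and it differed in the set low in the Dam-Lamin A profile alone. These bins had a median of 21 fragments with a median length of 340 bp. The low-ratio bins had 24 fragments of 289 bp, the bins low in the Dam-Lap2b profile alone 24 of 291 bp, and all bins outside both lists 24 of 290 bp.

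Most low-ratio bins stood alone. The 1075 bins formed 980 runs of adjacent bins, of which 902 were single bins, 66 held 2 bins, 10 held 3, 1 held 5 and 1 held 6. In all 173 bins (16.1%, 95% interval 13.9 to 18.4%) had a low-ratio neighbour, and the longest run spanned 60 kb. Low-ratio bins made up 0.449% of all bins. When only 1 profile had to reach -2, runs were more common. In the Dam-Lamin A profile 42.1% of the low bins lay in runs and the longest was 110 kb, and in the Dam-Lap2b profile 62.0% did and the longest was 270 kb. These sets hold 8878 and 7530 bins, and the part of set size in the run shares was not tested.

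The longest run lay on chromosome 6 from 31000001 to 31060000. Its 6 bins had -2.39, -2.08, -2.61, -2.12, -2.39 and -2.003 in the Dam-Lamin A profile, in genomic order. In the Dam-Lap2b profile they had -2.17, -2.17, -2.54, -2.62, -2.35 and -2.26. Reference reads ranged from 2953 to 8552 per bin, all above the 395 of the median bin. Both ends of the run differed. The bin before it had -1.05 and -1.53 with 843 reference reads, and the bin after it was lower still in the Dam-Lamin A profile, at -2.65, but had -1.24 in the Dam-Lap2b profile. Of its 133 fragments 48 (36.1%) were at -2 or lower in both profiles and 0 were above 0 in both. In the 40 kb on each side 18 of 184 fragments (9.78%) were low in both and 11 were above 0 in both. These 11 all lay before the run and held at most 5 reference reads, some with 0 reads in every library. The run was picked for its low values, so its contrast with the sides follows in part from the rule.

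**Figure D3:**
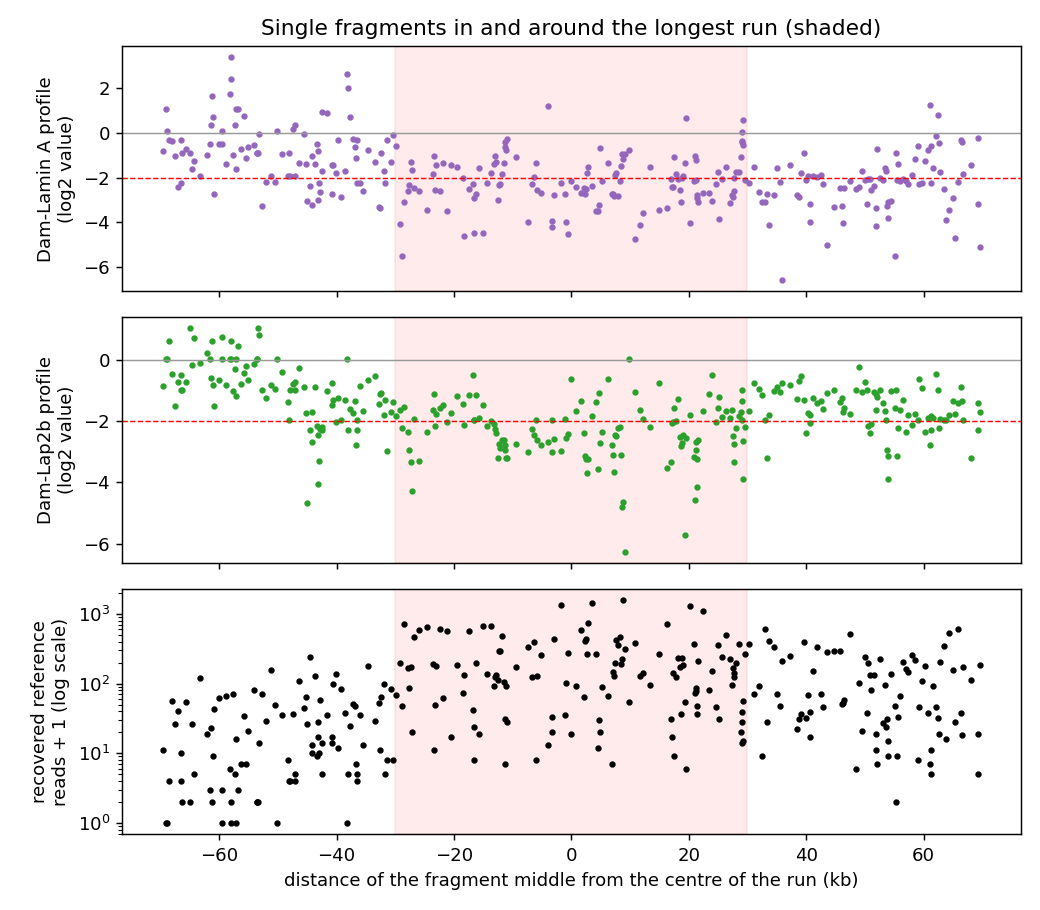
Single fragments by the distance of their middle from the centre of the longest run (kb, x axis), with their log2 value in the Dam-Lamin A profile (top) and the Dam-Lap2b profile (middle) and their reference reads + 1 on a log axis (bottom). The shading marks the 60 kb run, in which fragments scatter around the dashed line at -2 from -5.50 to 1.19 in the Dam-Lamin A profile and from -6.27 to 0.02 in the Dam-Lap2b profile.

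The second longest run, chromosome 9 21520001 to 21570000, had 5 bins between -2.70 and -2.004 in the Dam-Lamin A profile and between -2.77 and -2.30 in the Dam-Lap2b profile. Its bins held 1197 to 5016 reference reads. It began with a steep edge, since the bin before it had -0.39 and -0.89. Among the 10 runs of 3 bins, the lowest was chromosome 12 81330001 to 81360000, which averaged -2.67 and -2.27. It was followed by chromosome 11 118200001 to 118230000 (-2.26 and -2.61) and chromosome 19 5800001 to 5830000 (-2.33 and -2.499). The bins beside the run on chromosome 19 missed the rule in the Dam-Lap2b profile alone, with -2.06 and -1.81 before it and -3.14 and -1.87 after it.

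Values rose with distance from the low-ratio bins. For the single bins, the bins 10 kb before and after averaged -1.49 ± 0.54 and -1.52 ± 0.53 in the Dam-Lamin A profile, and -1.751 ± 0.58 and -1.78 ± 0.61 in the Dam-Lap2b profile. At 100 kb the averages were -1.11 and -1.11 in the former and -1.34 and -1.37 in the latter, and at 200 kb they were -0.92 and -0.92, and -1.15 and -1.16. Over all bins outside both lists the averages were -0.996 in the Dam-Lamin A profile and -0.903 in the Dam-Lap2b profile. The bins at 200 kb were not limited to those outside the lists, so the 2 sets are unlike and were not compared further. Over all bins, in a domain or not, the averages were 0.19 in the Dam-Lamin A profile and 0.26 in the Dam-Lap2b profile. Both profiles were lower than this at 200 kb. A minimum at the chosen bin follows from the rule. For single bins the adjacent bins are also, by definition, not low in both profiles, so the step at 10 kb is in part fixed. Around all low-ratio bins, with runs included, the bins 10 kb before and after averaged -1.57 and -1.60 in the Dam-Lamin A profile. In the Dam-Lap2b profile they averaged -1.83 and -1.85. Bins farther out were not used by the rule. Of 900 single bins with both neighbours measured, 888 (98.7%) had both neighbours below 0 in both profiles. The same share around other bins was not computed. In 614 (68.2%) a neighbour reached -2 in 1 of the profiles, and 3 had a neighbour above 0 in both.

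**Figure D4:**
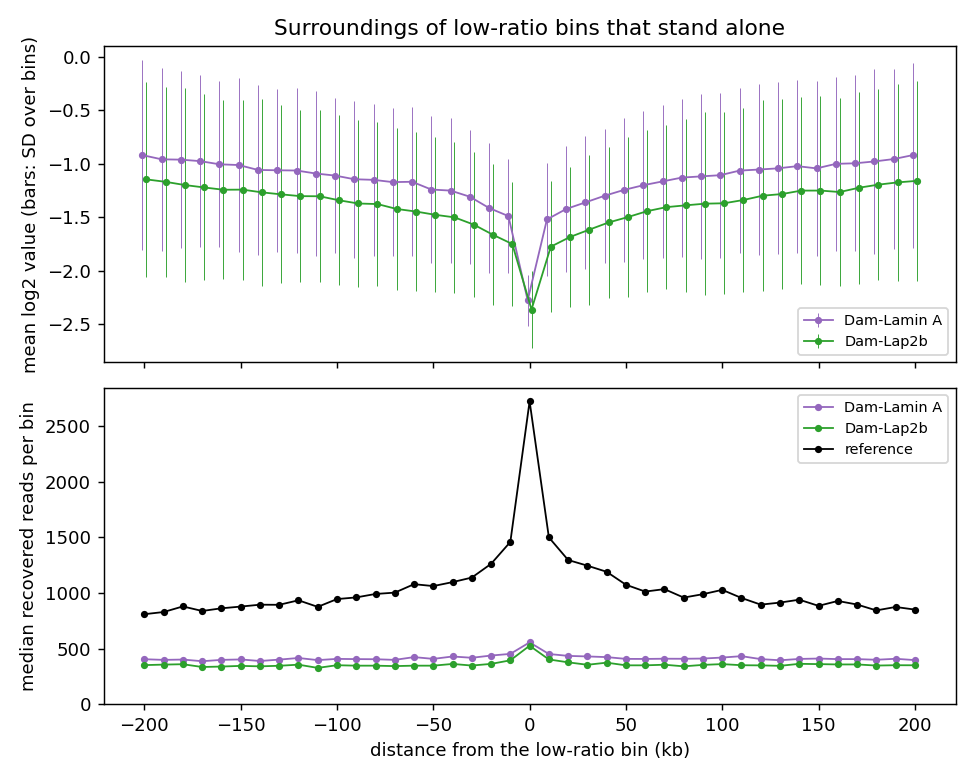
Mean log2 value of both profiles (top, bars show the SD over bins) and median recovered reads per bin of the 3 libraries (bottom) by distance from the 902 single low-ratio bins. The profiles dip at 0 kb below a broad trough, and the reference rises from about 810 reads at 200 kb before the bin to 2725 at the bin while the fusion libraries stay between 327 and 557 reads.

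In reads, the dip mirrored a peak of the reference. The median single bin held 2725 reference reads, the bins 10 kb away 1460 and 1501, and the bins 200 kb away 810 and 852. Dam-Lamin A reads were 557 at the bin and 405 and 397 at 200 kb, and Dam-Lap2b reads were 527 at the bin and 352 and 351 at 200 kb. Both fusion libraries were thus somewhat higher at the bin than around it, and the reference was higher by more. The reference enters both ratios that chose the bins, so its peak at the bin follows in part from the rule. The part of each library in the dip was not tested.

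Low-ratio bins were unevenly spaced along the chromosomes. The median spacing between neighbours on a chromosome was 335 kb (quartiles 70 and 1640 kb). Another low-ratio bin lay within 50 kb for 37.5% of them (95% interval 34.6 to 40.5%), within 100 kb for 49.7% (46.6 to 52.7%) and within 1000 kb for 85.6% (83.3 to 87.6%). Shares for bins spread evenly over the same ground were not computed, so these shares alone do not measure grouping. Of 2417 windows of 1 Mb, 523 (21.6%) held any low-ratio bin. The 38 windows with 5 or more made up 1.57% of the windows and held 244 bins (22.7%). The richest was chromosome 19 5000001 to 6000000 with 13, followed by chromosome 2 27000001 to 28000000 and chromosome 9 21000001 to 22000000 with 11 each. In these 3 windows every measured bin lay outside the listed domains. The longest stretch between neighbouring low-ratio bins was 41.1 Mb, on chromosome 14 from 76240001 to 117320000, where 84.6% of bins lay in a listed domain. Chromosome 13 had a stretch of 40.7 Mb without one, from 56720001 to 97420000, of which 69.8% lay in a domain.

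No low-ratio bin lay in a listed domain, by the middle of the bin. The count was 0 of 1075 for each list, with an approximate upper limit of 0.279%, taken as 3 divided by the number of bins. The lists come from the same libraries as the values that chose the bins, so their separation from domains is a description. All 1075 thus fell among the 106238 bins outside both lists and made up 1.01% of them (95% interval 0.953 to 1.07%). The median distance to the nearest domain of either list was 644 kb (95% order-statistic interval 593 to 702 kb), against 347 kb for all bins outside both lists. With the Dam-Lamin A list alone it was 782 kb and with the Dam-Lap2b list alone 688 kb.

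The share of low-ratio bins grew with distance from domains. Under 50 kb from a domain 31 of 14365 bins (0.216%, 95% interval 0.147 to 0.306%) were low in both. The share was 0.602% at 50 to 100 kb, 0.880% at 100 to 500 kb, 1.29% at 500 to 1000 kb and 1.46% at 1000 to 2000 kb. From 2000 kb on it was 2.15% (1.84 to 2.51%). The lists come from the same libraries as the values that chose the bins, so this gradient is a description with no test. All bins under 50 kb averaged -0.80 in the Dam-Lamin A profile and -0.46 in the Dam-Lap2b profile. Those from 2000 kb on averaged -1.12 and -1.38. Over the same classes the median reference reads per bin rose from 672 to 880, Dam-Lamin A reads went from 361 to 378, and Dam-Lap2b reads fell from 514 to 315. The part of each library in the gradient was not tested.

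The bins at both ends of the distance range are given as examples. The nearest, chromosome 7 16500001 to 16510000, lay 11.0 kb from a domain and had -2.14 in the Dam-Lamin A profile and -2.65 in the Dam-Lap2b profile. A single fragment held 75.5% of its reference reads. Chromosome 14 117320001 to 117330000 lay 12.7 kb away with -2.22 and -2.40, and chromosome 15 101810001 to 101820000 lay 14.7 kb away with -2.37 and -2.22. The farthest were chromosome 9 61810001 to 61820000 (6068 kb, -2.08 and -2.21), chromosome 9 61760001 to 61770000 (6049 kb, -2.45 and -2.01) and chromosome 2 30200001 to 30210000 (5931 kb, -2.16 and -3.22).

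Every autosome had low-ratio bins, but at unequal shares. Chromosome 7 had the most (119), followed by chromosome 11 (82) and chromosome 2 (75), and these 3 held 25.7% of all. As a share of bins tested, chromosome 19 was highest at 0.965% (56 of 5806, 95% interval 0.729 to 1.25%) and chromosome 7 next at 0.839% (0.696 to 1.00%). The intervals of these neighbours in the order overlapped. Chromosome 13 was lowest at 0.155% (18 of 11630, 0.0918 to 0.244%), 6.23 times below chromosome 19, and chromosome 3 next at 0.218% (0.151 to 0.304%). Moving the bin borders by 5 kb lowered the share of chromosome 19 to 0.723%.

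Chromosomes 11 and 19 had the largest shares of bins outside both lists, 58.3% and 55.1%, and shares of low-ratio bins of 0.691% and 0.965%. Chromosome 14 had the smallest, 36.1%, and a share of low-ratio bins of 0.329%. Chromosome 13 departed from this pattern, with 50.7% of its bins outside both lists against 43.3% on chromosome 7. As a share of bins outside both lists, chromosome 7 was highest at 1.94% (1.61 to 2.31%) and chromosome 13 still lowest at 0.305% (0.181 to 0.482%). The chromosomes differed mainly in the Dam-Lap2b profile. The share of bins at -2 or lower ranged from 2.63% to 5.27% in the Dam-Lamin A profile, a ratio of 2.001, and from 0.851% to 7.59% in the Dam-Lap2b profile, a ratio of 8.91. Chromosome 13 had 547 such bins in the Dam-Lamin A profile and 99 in the Dam-Lap2b profile. Chromosome 11 had the reverse, 427 and 900, with 82 low in both.

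**Figure D5:**
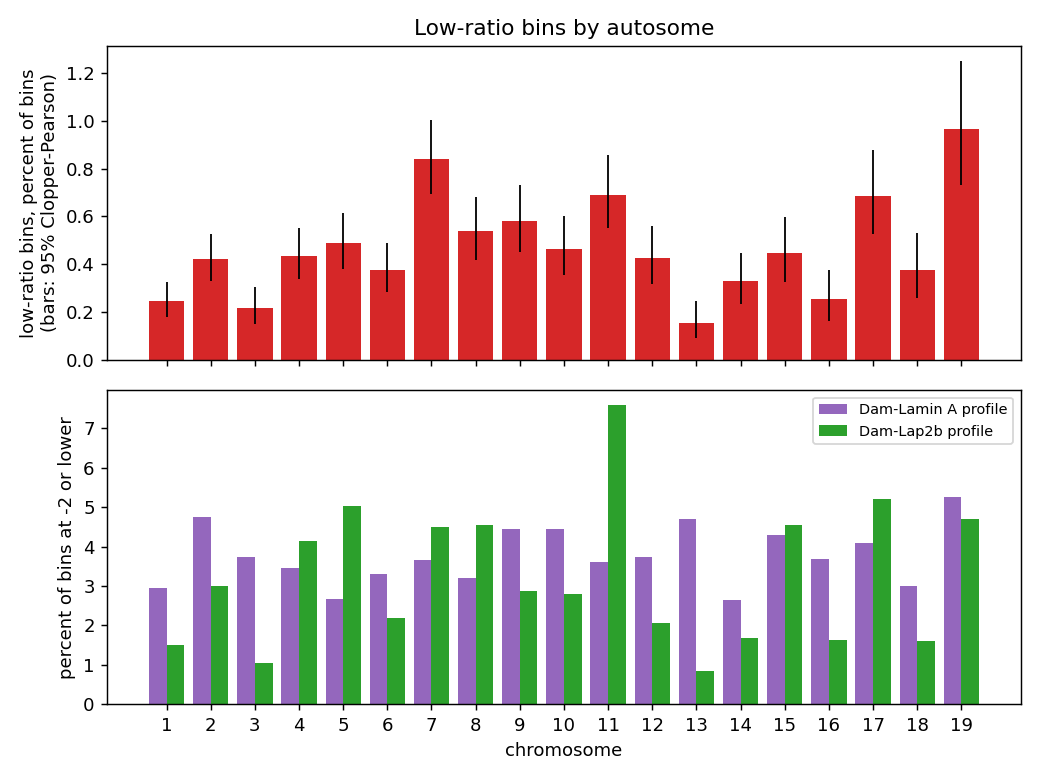
Share of tested bins on each autosome that were low in both profiles (top, error bars show 95% Clopper-Pearson intervals over bins) and in each profile on its own (bottom). Chromosomes 19 and 7 stand highest and chromosome 13 lowest in the top panel, and the green Dam-Lap2b bars vary more between chromosomes than the purple Dam-Lamin A bars.

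Placement toward chromosome ends was weak. Within 3 Mb of the first fragment of a chromosome, the centromere side of these acrocentric chromosomes, lay 38 low-ratio bins (3.53%, 95% interval 2.51 to 4.82%), against 2.84% of all bins outside both lists. Within 3 Mb of the last fragment lay 35 (3.26%, 2.28 to 4.50%), against 2.68%. Both differences were within the intervals.

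Single fragments inside the low-ratio bins varied widely. The bins held 25579 fragments, whose values averaged -2.28 ± 1.33 (SD over fragments) in the Dam-Lamin A profile and -2.37 ± 1.27 in the Dam-Lap2b profile. Of these, 8778 (34.3%) were at -2 or lower in both profiles, against 5.87% of fragments in all bins outside both lists. Few were above 0 in both profiles, 248 (0.970%) against 16.2%. A fragment with 0 reads in all 3 libraries counts as above 0, because its values are the constants 0.08 and 0.02. The 248 thus include 112 such fragments, and the 415792 outside both lists include 74344. Fragment values make up the bin means of the rule, so the differences in both shares follow in part from it. The median low-ratio bin had 33.3% of its fragments low in both, with a range of 0 to 77.8%. In 109 bins at least 50% of fragments were low in both, and 1 bin had none. The median fragment had -2.24 and -2.18, near the bin means, so moderately low fragments made up much of these bins. Empty fragments were few, with 112 (0.438%) at 0 reads in all 3 libraries, against 2.90% in bins outside both lists. Another 1283 (5.02%) had reference reads and 0 reads of both fusions, against 4.14% in bins outside both lists. High reference reads follow in part from the rule, so the small share of empty fragments does too.

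Fragments of all lengths took part. Mean Dam-Lap2b values lay between -2.48 and -2.22 in each of 6 length classes. Mean Dam-Lamin A values were -2.32 under 100 bp, lowest at -2.43 from 100 to 250 bp and -1.998 from 1000 to 2000 bp. They reached only -1.21 for the 225 fragments of at least 2000 bp. In all bins outside both lists the corresponding Dam-Lamin A values were -0.57, -0.89, -1.20 and -0.65, so the low-ratio bins were lower in each of these classes. Mean reference reads per fragment were 48.7 at 100 to 250 bp and 394 at 1000 to 2000 bp, against 15.6 and 120 outside both lists.

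A small number of fragments were far lower than the rest. On all autosomes 167 fragments were at -6 or lower in both profiles, and 65 of them (38.9%) lay in 54 of the low-ratio bins. Such a fragment in a low-ratio bin had a median length of 634 bp and a median of 1378 reference, 11 Dam-Lamin A and 2 Dam-Lap2b reads. Without these fragments 26 of the 54 bins still met the rule. Of the 100 lowest fragments of all autosomes by the mean of both profiles 41 lay in low-ratio bins, and of the 1000 lowest 203 did. For scale, low-ratio bins held 25579 of the 5970314 fragments in all bins. The values of these fragments entered the bin means that chose the bins, so their share follows in part from the rule.

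The lowest fragment lay on chromosome 2 from 109517454 to 109518182. Its 729 bp had -9.72 in the Dam-Lamin A profile and -12.37 in the Dam-Lap2b profile, from 11 and 1 fusion reads and 10756 reference reads. It alone held 86.6% of the reference reads of its bin. The adjoining fragments were also low, at -5.21 and -4.45 on one side and -6.76 and -6.82 on the other, with 353 and 114 reference reads.

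The next lowest fragments had the same form. Chromosome 17 87424283 to 87425287 had -8.59 and -11.16 with 13904 reference reads, 89.1% of those in its bin. Chromosome 16 8671106 to 8672154 had -8.75 and -9.68 with 10012 reference reads, 86.3% of its bin. The pair on chromosome 9, 50536020 to 50536842 (-7.54 and -11.69) and 49606040 to 49606816 (-8.15 and -10.22), had 3351 and 3621 reference reads, 56.0% and 60.4% of their bins. In 83 low-ratio bins (7.72%) 1 fragment held over 50% of the reference reads, a share that was not computed for other bins. In the median low-ratio bin the top fragment held 22.9%, near the 20.4% in the median of all bins. The median was 21.3% in bins low in the Dam-Lamin A profile alone. It was higher, 26.3%, in bins low in the Dam-Lap2b profile alone. Leaving out the fragment with the most reference reads from every bin left 954 bins, 887 of them among the 1075.

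The highest fragments in low-ratio bins had few reads. Chromosome 5 31502617 to 31503442 had 4.84 and 0.02, from 26 Dam-Lamin A reads and 0 of Dam-Lap2b and of the reference. Chromosome 7 119821981 to 119823294 had 4.67 and 0.02 from 23, 0 and 0 reads, and chromosome 6 134874112 to 134874722 had 2.08 and 2.19 from 7, 8 and 1. A value of 0.02 is the constant of the Dam-Lap2b profile, where fusion and reference reads are equal.

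Alternate fragments gave a measure within the same libraries that had not chosen the bin. When bins were chosen on the even-numbered fragments along the chromosomes, 1269 bins reached -2 in both profiles, and their odd-numbered fragments averaged -2.09 ± 0.43 in the Dam-Lamin A profile and -2.26 ± 0.48 in the Dam-Lap2b profile. All bins averaged 0.19 and 0.26. Of the 1269 bins 539 (42.5%, 95% interval 39.7 to 45.2%) reached -2 in both profiles on the other fragments as well, and 100% were below 0 in both there. The low level was thus seen in both sets of fragments, while the exact side of the threshold was often not. Both sets come from the same libraries and share the reference, and neighbouring fragments meet at a common GATC site. The sets are therefore not independent, and a low level in both is a description of these libraries with no test.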

How the data were processed

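DamID libraries of Dam-Lamin A, Dam-Lap2b and Dam alone were made from mouse embryonic fibroblasts, 1 sample each, and grouped by the group in the labels. A profile and a domain list were used for each fusion, and a separate file for Dam alone was not used here. Per the submitters' processing notes reads were aligned with Bowtie to mm9. Counting, normalization and the domain caller are not given in the sources used here. The profiles hold log2 ratios per fragment as deposited by the authors, and the lists hold starts and ends. Coordinates are mm9, counted from 1.

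Means per 10 kb bin and all other values were computed in Python 3.11.15 with numpy 2.4.6, pandas 2.3.3 and scipy 1.17.1. The most frequent value of each profile served as its constant, and reads were the smallest whole numbers giving both log2 values with a denominator of at most 20000 (14 fragments had none). The steps were tested on simulated data. Intervals are 95% Clopper-Pearson or order-statistic intervals over bins, or a 95% normal approximation for the mean difference between profiles. They cover counting over bins of 1 library, not variation between samples.

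Named regions were the longest runs, the lowest bins, bins at the threshold, bins nearest to and farthest from domains, and the lowest fragments. Members and rules were chosen with earlier results of these data known. The bins with the lowest Dam-Lamin A value, the highest fragments, the richest 1 Mb windows and the longest empty stretches were added after values were seen. Genes were not assigned, as no annotation of this build was used.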

Additional observations from a re-analysis of the deposited data

How the results depend on the processing

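No paired analysis was possible because each group had 1 sample, and leaving out a replicate was not possible for the same reason. The count of 1075 low-ratio bins stayed within 1.5 times under 8 of 12 alternatives. It was 222 with 20 kb bins, 709 with means weighted by fragment length, 3626 with the threshold raised by 0.25 and 252 with it lowered by 0.25. The share in runs was 20.3%, 12.8%, 32.7% and 7.94% under these settings, 13.2% with at least 20 fragments, 12.3% with the median over fragments, 13.1% with summed reads and 25.3% when 1 other bin was allowed within a run. The median distance to a domain was 807 kb with 20 kb bins, 782 kb with the Dam-Lamin A list alone, 849 kb with domains in both lists alone and 590 kb with summed reads. The share on chromosome 19 was 0.378% with 20 kb bins, 0.723% with borders moved by 5 kb, 0.637% with length weights, 2.64% with the threshold raised and 0.241% with it lowered. The mean excess of Dam-Lamin A over Dam-Lap2b values was 0.13 with 20 kb bins, 0.17 with length weights, 0.0191 with the median, 0.30 with summed reads and 0.0548 without the fragment of most reference reads. It kept its sign in all 12, but with the median its interval over bins, -0.00895 to 0.0472, included 0. Leaving out that fragment, or fragments at 0 reads in all 3 libraries, was chosen after seeing the data. The causes of these shifts were not tested. Depth limits single fragments most: with a median of 54 reference reads per fragment in low-ratio bins and 8 in all bins, whole bins are the firmer unit.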

Other observations

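Chromosome X, which the rule left out, had 5 of 16160 bins (0.0309%, 95% Clopper-Pearson interval 0.01005 to 0.0722%) at -2 or lower in both profiles. In the Dam-Lamin A profile 157 of its bins reached -2 and in the Dam-Lap2b profile 31. Its median bin held 264 reference reads, against 395 on the autosomes, and 73.4% of its bins held enough reference reads to reach -2 in both profiles had no fusion read been present, against 85.2% on the autosomes. The part of the reference depth in the low count was not tested.

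The bin with the most reference reads among the low-ratio bins, chromosome 7 26050001 to 26060000, was singled out after its values were seen. It held 21698 reference reads, 80.9% of them in 1 fragment, with 6074 Dam-Lamin A and 210 Dam-Lap2b reads, and had -2.23 and -3.54. The bin with the fewest, chromosome 7 29140001 to 29150000, held 610 reference, 74 Dam-Lamin A and 115 Dam-Lap2b reads over 17 fragments, and had -2.61 and -2.11.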
